A study of Rattus norvegicus with 16 samples.

Results

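The nucleus basalis of male rats was compared between stress and control by bulk RNA sequencing, across every gene with enough counts to test. The comparison rests on 8 of the 16 libraries of the series, chosen by their labels: 4 of the group Stress from males (numbered 11, 12, 13 and 14 in their titles) and 4 of the group Control from males (16, 17, 18 and 20). All 16 libraries came from brain tissue labelled nucleus basalis of Meynert, taken from Long Evans rats at 70 days of age or more that carried ChAT::Cre, so the controls carry it too. By its title the series is about how stress bears on attention and the cholinergic system. The labels give neither the stressor, its duration nor the time from the last stress to tissue collection, and they do not say that each library is a separate animal. P-values therefore measure the spread between these libraries, which may be technical in part. The 8 female libraries of the same design entered the fit to share its estimate of spread, and their stress effects stand beside the male ones.

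The nucleus basalis of Meynert is a cell group of the basal forebrain whose cholinergic neurons send acetylcholine to the cortex and support attention. These large neurons lie among GABA neurons, glutamate neurons and glia, and a dissected sample holds all of them. ChAT is choline acetyltransferase, the enzyme that makes acetylcholine, and in ChAT::Cre rats the cells that express it carry Cre recombinase. Stress reaches such a tissue through glucocorticoids and through neuromodulators such as noradrenaline, and both change transcription in neurons and glia. In bulk tissue fewer cells of a type and less RNA per cell cannot be told apart.

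Counts assigned to genes came to 24.4 to 73.8 M per stressed male library and 30 to 67.0 M per control, where M stands for mega. Stressed 11 and control 20 were counted with featureCounts, which took each mate of a pair on its own, and had the highest totals. The other 6 male libraries were counted with HTSeq, so results are also given for the HTSeq libraries, a fit that leaves out those 2 and 1 female control, and where a call depends on it with only those 2 left out. The mitochondrial share of counts was 78.2% ± 2.97 under stress and 74.9% ± 3.13 without it (mean ± SD of 4 male libraries each). A two-sided exact permutation test gave p = 0.2, or 0.6 after adjustment over 9 library measures. In the HTSeq males alone it was 76.0% to 77.8% under stress and 70.8% to 75.8% without it, with no overlap (exact permutation p = 0.1, or 0.65 after adjustment over 13 measures). The share of entries that HTSeq assigned to no feature ran from 13.1% to 14.0% in the 3 stressed males counted so. Which features were counted is not given, so such entries may lie outside genes or in uncounted parts of them. It ran from 16.6% to 22.0% in the 3 controls, with no overlap. The exact permutation p was 0.1, the smallest that 3 against 3 can give, or 0.65 after adjustment over 13 measures. The groups overlapped once entries not aligned, or not aligned uniquely, were left out of the total. Stressed 12, 13 and 14 then had 20.2%, 19.2% and 26.1% assigned to no feature. Controls 16, 17 and 18 had 23.0%, 26.8% and 31.6% (exact permutation p = 0.2, or 0.867 after adjustment over 13 measures). In stressed 14, 38.8% of entries were not aligned, against at most 14.7% in the 3 HTSeq controls. No 2 male libraries of a group agreed within sampling noise, with a chi-square of at least 8.78 per degree of freedom over genes. The part of these library differences in the results was not tested.

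Stress in males raised 16 genes and lowered 1 of the 14241 tested, by edgeR's quasi-likelihood test at an adjusted p under 0.05. That is 0.112% of the genes higher and 0.00702% lower, and 600 genes were higher and 497 lower at an unadjusted p under 0.05. Of the 16 genes that rose, 9 did so at least 2-fold, and the log2 of the ratio of stressed over control (log2 ratio, from the fit) ran from 0.63 to 3.02. Its median was 1.08, against 0.00 over all genes tested. Among the HTSeq libraries alone 4 genes rose, 0.0278% of 14402 tested, and 1 fell, 0.00694%. The 4 were among the 16, and the gene that fell was another one. All 16 had the same sign there and an unadjusted p under 0.05, and 10 had an adjusted p under 0.1. Their log2 ratios without the featureCounts libraries were 0.826 to 1.12 times those with them, with a median ratio of 0.988. With only stressed 11 and control 20 left out, edgeR called 3 genes higher (0.0207% of 14495 tested), those ranked 1, 2 and 4, and 0 lower (0%), with 447 higher and 326 lower at an unadjusted p under 0.05. All 16 had the same sign there too, and an unadjusted p under 0.05. Both fits share most of their male libraries with the fit that called the 16, so this partly follows from the choice. When 1 male library was left out, 6 of the 16 were still called without stressed 11, 7 without control 16 or control 18, and 10 without any one of the other 5. The totals called higher were 7 without stressed 11 and 11 without stressed 14 or control 20, so 1 other gene was called in each of these fits.

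**Figure D1:**
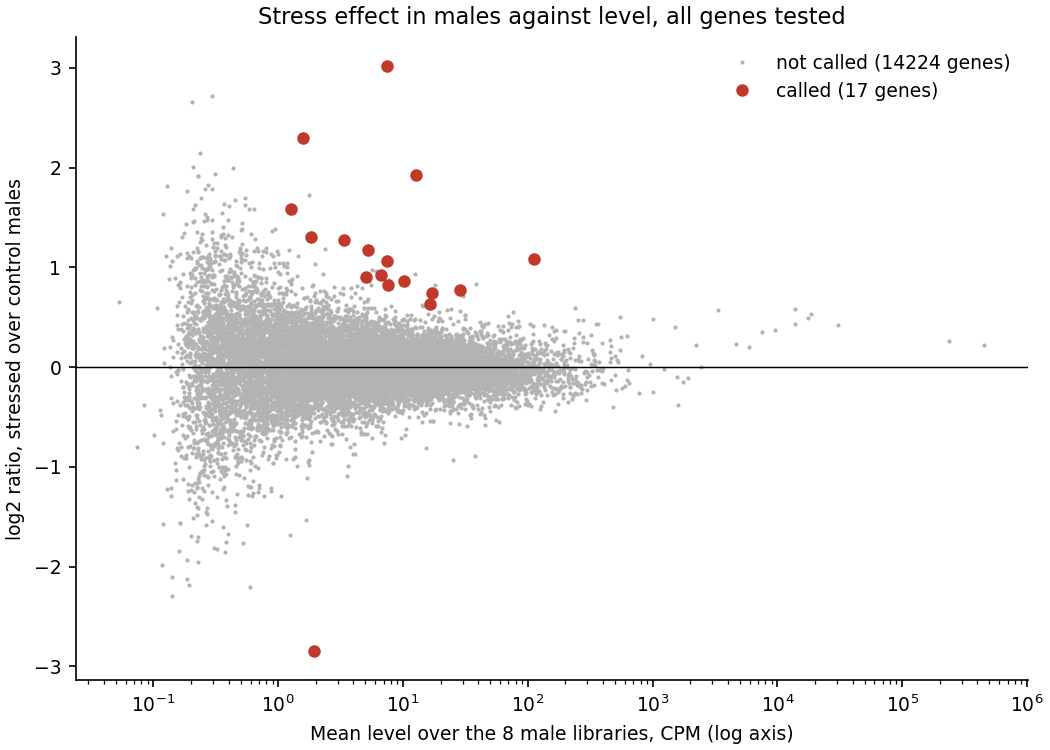
Log2 ratio of stressed over control males against the mean level over the 8 male libraries in CPM (log axis) for all 14241 genes tested, grey where not called and red for the 17 called. Of the 17 called genes, 16 lie above 0 and 1 lies below.

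Every stressed male library lay above every control male library in 421 genes (2.96% of those tested) and below in 329 (2.31%), and all 16 genes that rose were among the 421. A gene with a small p nearly always has separate groups, so this describes the 16 and adds no test. Stressed 11 was the highest stressed library in 7 of the 16, stressed 13 in 4, stressed 12 in 3 and stressed 14 in 2. Control 16 was the lowest control in 8. The files hold Ensembl identifiers without names, and the name table at hand matched none of them. Genes are therefore given by their rank of p and their position on Rnor_6.0 (1-based), and what they encode is not stated. None of the 17 has exons that overlap another annotated gene. Levels are counts per M counts (CPM) with TMM scaling, and RPKM is CPM per kb of summed exon length.

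The lead gene, ENSRNOG00000003977 (chromosome 10, 16970626 to 16973418), has 4 exons. Its level was 21.7, 23.2, 18.1 and 18.0 CPM in stressed 11, 12, 13 and 14. It was 4.60, 5.28, 5.36 and 5.96 CPM in controls 16, 17, 18 and 20. The lowest stressed library was thus about 3 times the highest control, the featureCounts library control 20. It rose 3.81-fold (log2 ratio 1.93, SE 0.15, adjusted p = 3.48e-08), and by 1.96 (SE 0.17, adjusted p = 4.72e-07) in the HTSeq libraries. The female log2 ratio was 2.00 (SE 0.15).

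The gene with the largest rise was ENSRNOG00000007830 (chromosome 4, 168752133 to 168755023), which has 1 annotated exon of 2891 bases. It read 14.2, 6.89, 18.1 and 13.9 CPM in stressed 11, 12, 13 and 14, and 1.95, 1.68, 1.15 and 1.76 CPM in controls 16, 17, 18 and 20. The SD was 4.65 CPM around a mean of 13.3 CPM in the stressed libraries and 0.343 CPM around 1.64 CPM in the controls. Stressed 12 was the lowest stressed library, and the groups still did not overlap. The rise was 8.11-fold (log2 ratio 3.02, SE 0.25, adjusted p = 3.41e-07), and 3.03 on the log2 scale (SE 0.32, adjusted p = 0.000177) in the HTSeq libraries. In females the log2 ratio was 3.46 (SE 0.27).

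**Figure D2:**
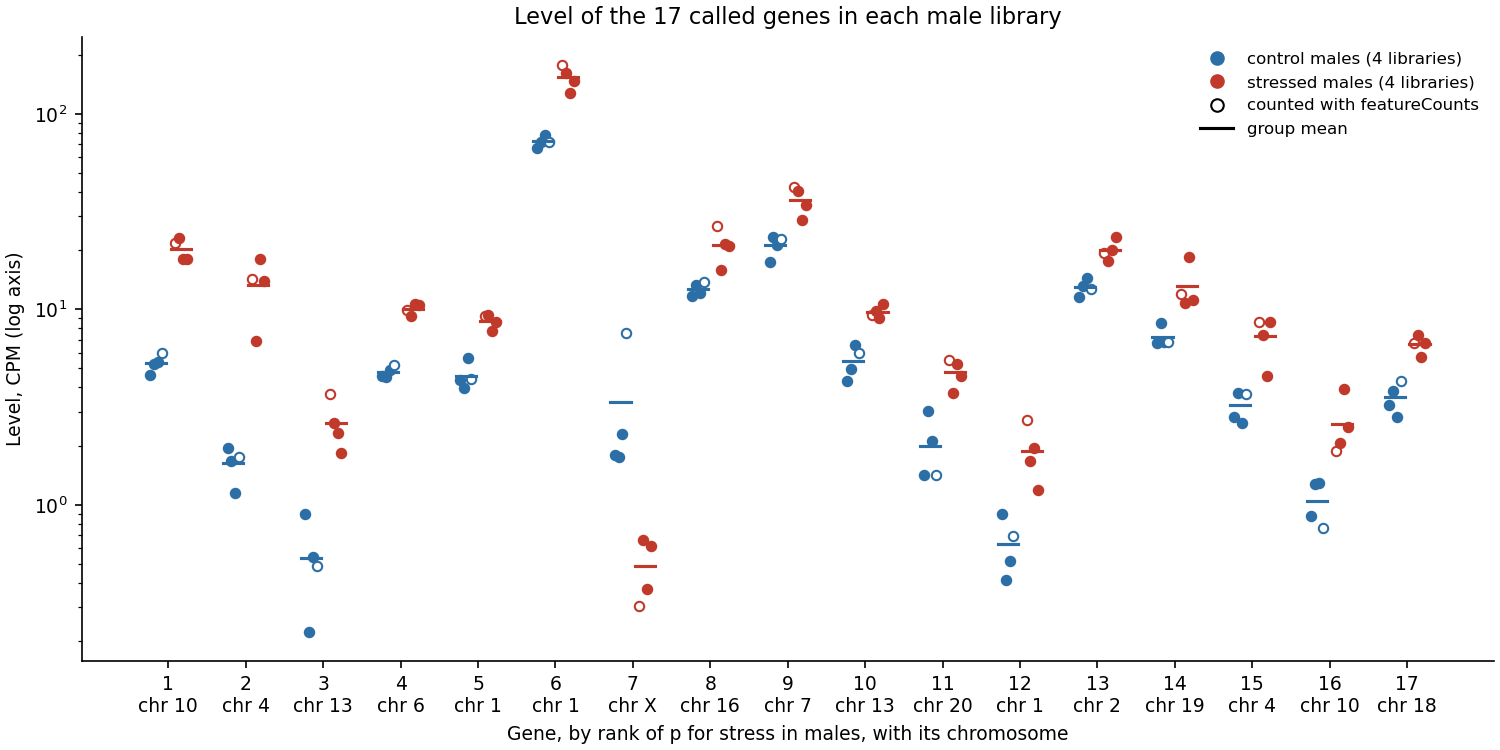
Level in CPM (log axis) of each of the 17 called genes in the 4 stressed (red) and 4 control (blue) male libraries, with group means as bars and featureCounts libraries as open circles. In all 17 genes the groups are separate. The gene ranked 7 on chromosome X has 1 control, the featureCounts library control 20, at 7.57 CPM, far above the other 3.

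A further 4 genes, ranked 3 to 6, kept their call whichever male library was left out, as did the leading pair. The gene ranked 3 (chromosome 13, 50913180 to 50916982, 2 exons) was the rarest of them. Its level was 3.67, 2.64, 2.33 and 1.85 CPM in stressed 11, 12, 13 and 14, against 0.902, 0.222, 0.541 and 0.484 CPM in controls 16, 17, 18 and 20. Stressed 11 was highest and control 17, with 7 counts, was lowest. The log2 ratio was 2.30 (SE 0.33, adjusted p = 0.00136), and 2.02 (SE 0.34, adjusted p = 0.0206) in the HTSeq libraries. With only stressed 11 and control 20 left out it was 2.02 (SE 0.39, adjusted p = 0.102), which ends the call in that fit. With the 6 male HTSeq libraries fitted alone it was 2.02 (SE 0.37, adjusted p = 0.0436), which keeps it.

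The gene ranked 4 (chromosome 6, 76267228 to 76270457, 6 exons) had the tightest groups. It stood at 9.88, 9.20, 10.6 and 10.5 CPM in stressed 11, 12, 13 and 14, and at 4.54, 4.48, 4.89 and 5.19 CPM in controls 16, 17, 18 and 20. This is a 2.10-fold rise (log2 ratio 1.07, SE 0.16, adjusted p = 0.00136), and its HTSeq value was 1.12 (adjusted p = 0.00501). The gene ranked 5 (chromosome 1, 85380088 to 85382569, 2 exons) went from 4.58 ± 0.73 to 8.74 ± 0.75 CPM (SD, n = 4; log2 ratio 0.93, adjusted p = 0.00218). Its HTSeq log2 ratio was 0.87 with an adjusted p of 0.0703, which ends its call.

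The gene ranked 6 (chromosome 1, 24185435 to 24302298) was the most abundant of the 16 and the longest, with 17 exons over 116.9 kb. It read 177.5, 162, 127 and 147 CPM in stressed 11, 12, 13 and 14, and 67.2, 72.1, 78.0 and 71.9 CPM in controls 16, 17, 18 and 20. The controls were within a narrow band, and even the lowest stressed library, 13, stood well above it. The gene rose 2.12-fold (log2 ratio 1.08, SE 0.17, adjusted p = 0.00626), from 19.8 to 42.0 RPKM. Without the featureCounts libraries the log2 ratio was 1.00 (SE 0.19, adjusted p = 0.0703), so the size held and the call did not in that fit. With the 6 male HTSeq libraries fitted alone it was 1.00 (SE 0.11, adjusted p = 7.62e-05), which keeps the call.

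Among the remaining 10 genes that rose, each call ended when some male library was left out, while the sign held in every such fit. The gene ranked 8 (chromosome 16, 74098260 to 74122889, 14 exons) went from 12.7 ± 0.99 to 21.3 ± 4.3 CPM (SD, n = 4; log2 ratio 0.75, adjusted p = 0.0112). It was not called without stressed 11, control 16 or control 18, with adjusted p up to 0.0803, nor in the HTSeq libraries (0.66, adjusted p = 0.0953). The gene ranked 10 (chromosome 13, 104284660 to 104321455, 4 exons) went from 5.45 ± 1.0 to 9.69 ± 0.68 CPM (log2 ratio 0.82, adjusted p = 0.015). It was not called without stressed 11, 12 or 14 or control 16 or 17, with adjusted p up to 0.126, and its HTSeq value was 0.88 (adjusted p = 0.0703).

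The gene ranked 12 (chromosome 1, 242572533 to 242577817, 2 exons) was another rare one. Its level was 2.71, 1.68, 1.96 and 1.19 CPM in stressed 11, 12, 13 and 14, and 0.902, 0.413, 0.517 and 0.692 CPM in controls 16, 17, 18 and 20. Stressed 14 and control 16 lay close together, on 29 and 30 counts. The log2 ratio was 1.59 (SE 0.31, adjusted p = 0.0362), and 1.41 (adjusted p = 0.355) in the HTSeq libraries. It was not called without stressed 11, 12 or 13 or control 17, 18 or 20, with adjusted p up to 0.275.

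The gene ranked 13 (chromosome 2, 8732932 to 8743069, 8 exons) had the smallest rise, 1.55-fold, from 13.0 ± 1.2 to 20.1 ± 2.4 CPM (SD, n = 4; log2 ratio 0.63, adjusted p = 0.0362). It was called without stressed 12 and in no other fit that left out 1 library, where adjusted p reached 0.224, and its HTSeq value was 0.64 (adjusted p = 0.114). The gene ranked 15 (chromosome 4, 30546664 to 30556814, 11 exons) went from 3.22 ± 0.58 to 7.29 ± 1.9 CPM (log2 ratio 1.17, adjusted p = 0.0453). Stressed 13, at 4.55 CPM, was nearest to the controls, and the call held without it and ended without any of the other 7 libraries, with adjusted p up to 0.257. In the HTSeq libraries the log2 ratio was 1.15 (adjusted p = 0.0953).

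The stress effect in females was tested for the same genes, with 9 genes called higher there (0.0632% of those tested) and 0 lower. Of the 16 genes that rose in males, 7 were called in females, those ranked 1, 2, 4, 5, 6, 10 and 13. The log2 ratio was above 0 in females for 14 of the 16, with a median of 0.87, and in 9 every stressed female library lay above every control female, as in 245 of all genes tested (1.72%). Both effects come from 1 fit that shares each gene's spread. The difference of the stress effect between the sexes was called for 0 genes by edgeR's quasi-likelihood test, with 571 at an unadjusted p under 0.05, while DESeq2 called 1 and limma voom 0. The smallest adjusted p of the difference among the 17 genes called in males was 1.0.

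Of those 17, 5 had an unadjusted p under 0.05 for the sex difference, against 571 of all 14241 tested. All 5 had the smaller value in females. That direction partly follows from the choice, since the 17 were called on the male values that enter the difference. The gene ranked 17 (chromosome 18, 52550739 to 52551805), with 1 exon of 1067 bases, read 6.70, 7.40, 5.71 and 6.73 CPM in stressed 11, 12, 13 and 14. It read 3.25, 3.81, 2.80 and 4.30 CPM in controls 16, 17, 18 and 20. The male groups stood clearly apart, with a log2 ratio of 0.90 (SE 0.19, adjusted p = 0.0453), and the female value was -0.18 (SE 0.18; unadjusted p of the difference 0.00035). The gene ranked 16 (chromosome 10, 88318817 to 88325326, 8 exons) read 1.89, 2.07, 3.89 and 2.504 CPM in stressed 11, 12, 13 and 14, against 0.872, 1.27, 1.29 and 0.761 CPM in controls 16, 17, 18 and 20. Stressed 13 was the highest, and the log2 ratio of 1.31 (SE 0.27, adjusted p = 0.0453) stood against -0.17 in females (SE 0.26; unadjusted p of the difference 0.000526).

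The gene ranked 14 (chromosome 19, 11324698 to 11326139) is the shortest of the 17, with 413 bases of exon. It read 12.0, 10.7, 18.5 and 11.1 CPM in stressed 11, 12, 13 and 14, and 6.73, 8.55, 6.77 and 6.81 CPM in controls 16, 17, 18 and 20. Stressed 13 and control 17 were each high within their group. The log2 ratio was 0.86 (SE 0.17, adjusted p = 0.0362) in males and 0.04 (SE 0.17) in females (unadjusted p of the difference 0.00233). Per length, at 31.7 RPKM in stressed and 17.5 in control males, it was second in level to the gene ranked 6.

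The gene ranked 9 (chromosome 7, 141370491 to 141377928, 8 exons) had a log2 ratio of 0.77 (SE 0.14, adjusted p = 0.0116) in males and 0.25 (SE 0.14) in females. The gene ranked 11 (chromosome 20, 6351458 to 6358864, 3 exons) had 1.27 (SE 0.24, adjusted p = 0.0228) and 0.56 (SE 0.24). Their unadjusted p for the difference was 0.0116 and 0.0432. All 5 calls ended in some fits that left out a male library, as did others of the 17. The gene ranked 16 was called in 0 of the 8 fits that left out 1 library (adjusted p up to 0.375), and the gene ranked 17 in 1, that without control 20 (adjusted p up to 0.244). The gene ranked 14 was called in 3, those without stressed 12 or 14 or control 17 (adjusted p up to 0.317). The gene ranked 11 was called in 2, those without stressed 12 or control 17 (adjusted p up to 0.163), and the gene ranked 9 in 4, those without stressed 13 or 14 or control 17 or 20 (adjusted p up to 0.102). In the HTSeq libraries the 5 had log2 ratios of 1.30, 1.01, 0.88, 1.05 and 0.73 in that order, with adjusted p of 0.0943 for the gene ranked 9 and 0.113 to 0.318 for the others. With the 6 male HTSeq libraries fitted alone, only the gene ranked 17 of the 5 was called (adjusted p = 0.0436). The others had adjusted p of 0.0537 to 0.18 there.

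**Figure D3:**
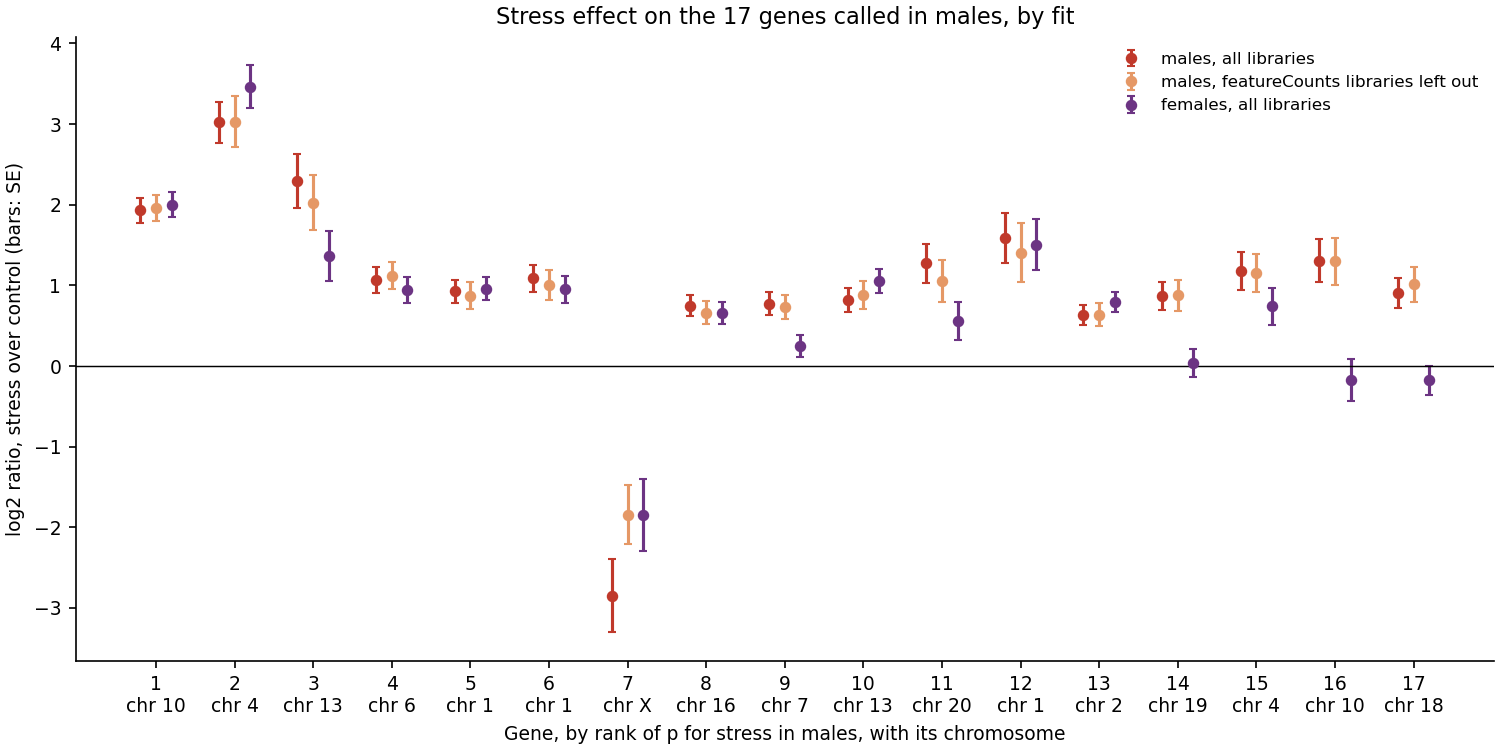
Log2 ratio of stress over control (bars, SE) for the 17 genes called in males: all libraries (red), the featureCounts libraries left out (orange) and females (purple). The male values differ most at rank 7, -2.85 against -1.84, and the female values are near 0 at ranks 14, 16 and 17.

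The gene that fell was ENSRNOG00000046790 (chromosome X, 113002150 to 113018073, 2 exons). Its level was 0.303, 0.659, 0.369 and 0.616 CPM in stressed 11, 12, 13 and 14, on 13 to 22 counts. It was 1.80, 1.75, 2.31 and 7.57 CPM in controls 16, 17, 18 and 20. All controls lay above all stressed libraries, and control 20, a featureCounts library, was more than 3 times the next. The log2 ratio was -2.85 (SE 0.46, adjusted p = 0.00718), and -1.84 (SE 0.37, adjusted p = 0.0772) in the HTSeq libraries, a value over 1.5 times smaller. The gene was also not called without stressed 11 or stressed 13, with adjusted p up to 0.066. With the 6 male HTSeq libraries fitted alone it was called (log2 ratio -1.85, adjusted p = 0.0397). With the 8 males fitted alone it was not (log2 ratio -2.86, adjusted p = 0.0758). In females the log2 ratio was -1.85 (SE 0.45, adjusted p = 0.229).

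The gene called lower in the HTSeq libraries was ENSRNOG00000025768 (chromosome 9, 65296778 to 65307995, 13 exons). It read 38.2, 20.8, 17.6 and 29.6 CPM in stressed 11, 12, 13 and 14, and 50.4, 50.7, 57.5 and 39.2 CPM in controls 16, 17, 18 and 20. The groups were separate by a narrow gap, and the 2 libraries that met there, stressed 11 and control 20, are the featureCounts ones. Its log2 ratio was -1.23 (SE 0.20, adjusted p = 0.0264) without the 3 featureCounts libraries, -1.23 (SE 0.25, adjusted p = 0.182) without only the 2 male ones and -0.89 (SE 0.26, adjusted p = 0.371) with them. It was -1.23 (SE 0.15, adjusted p = 0.00156) with the 6 male HTSeq libraries fitted alone and -0.89 (adjusted p = 0.23) with the 8 males fitted alone. In females it was -1.04 (SE 0.26, adjusted p = 0.345). The genes ranked next after the 17 by p were mixed: of the following 30, 20 were higher and 10 lower in stressed males, with adjusted p from 0.0526 to 0.281.

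The 10 genes with the smallest p among those called in females or on average over the sexes, but not in males, were looked up in males. All 10 had a log2 ratio above 0, from 0.41 to 1.72, and in 9 every stressed male lay above every control male. That direction partly follows from the choice, since the average includes the males. Of these, a gene on chromosome 7 (142905758 to 142920216, 8 exons) came nearest to the threshold. It read 8.63, 7.10, 7.25 and 9.40 CPM in stressed 11, 12, 13 and 14, and 4.72, 4.83, 2.28 and 4.74 CPM in controls 16, 17, 18 and 20 (log2 ratio 0.97, SE 0.20, adjusted p = 0.0526). Its HTSeq value was 1.01 (adjusted p = 0.285). A gene on chromosome 20 (29509289 to 29511382, 3 exons) went from 3.78 ± 0.41 to 6.87 ± 1.0 CPM (SD, n = 4; log2 ratio 0.87, adjusted p = 0.0596), with an HTSeq value of 0.84 (adjusted p = 0.428). The largest value, 1.72 (SE 0.41, adjusted p = 0.179), belonged to a gene on chromosome 1 (252906234 to 252911382, 2 exons), with 5.23 CPM in stressed 13 and 1.56 to 2.12 CPM in the other 3 stressed libraries. In the HTSeq libraries it was 1.55 (adjusted p = 0.487).

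The 5 genes whose log2 levels over the 8 male libraries most resembled the mean standardised level of the 16 were found outside the called set, with Pearson correlations of 0.962 to 0.98. They are a description over 8 libraries that share the groups. A gene on chromosome 8 (118013612 to 118159933, 20 exons) was the most abundant, at 320.9, 299.1, 311 and 296 CPM in stressed 11, 12, 13 and 14. It was at 235.9, 244, 266 and 252 CPM in controls 16, 17, 18 and 20. Every stressed library stood above every control, by a shift larger than the spread within the groups (log2 ratio 0.30, SE 0.10, adjusted p = 0.45). A gene on chromosome 12 (14021727 to 14078134, 7 exons) had 50.3 to 54.4 CPM in stressed and 37.7 to 41.0 CPM in control males (log2 ratio 0.43, adjusted p = 0.305), and a gene on chromosome 9 (27368272 to 27452902, 9 exons) had a log2 ratio of 0.47 (adjusted p = 0.294). The other 2, on chromosomes 8 (75468901 to 75469214) and 18 (28835417 to 29015552), stayed under 1 CPM in all 8 libraries. The HTSeq log2 ratios of the 5 were 0.28 to 1.33, with adjusted p of 0.635 to 0.792.

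The 16 genes that rose tended to be compact. Their median was 4 exons and a span of 5.90 kb, against 9 exons and 21.6 kb over all genes tested, and 13 of 16 had fewer exons than that median and 13 a shorter span. The median summed exon length was 1943 bases, against 2401. Their median level in control males was 2.63 RPKM, against 1.99 over all genes tested. They lay on 11 chromosomes, with 3 on chromosome 1.

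Across all nuclear genes the median effect also moved with summed exon length, in groups formed after the data were seen. Genes with under 500 bases of exon had a median log2 ratio of 0.08, with 35 higher and 10 lower of 620 at an unadjusted p under 0.05. Genes of 500 to 1000 bases had 0.09, with 67 higher and 18 lower of 1023. Genes of 4000 to 8000 bases had -0.02, with 92 higher and 151 lower of 2676. The medians are thus far smaller than the effects on the called genes. In the HTSeq libraries the shortest class was at 0.02 and the next at 0.09, and in females they were at 0.10 and -0.01.

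Over the 1643 genes with under 1000 bases of exon, the median distance of a library from the mean of the 8 males (log2) was 0.03, 0.07, 0.06 and 0.06 in stressed 11, 12, 13 and 14. It was -0.06, 0.01, 0.05 and -0.13 in controls 16, 17, 18 and 20. The groups overlapped at control 18. Genes that span 500 kb or more, 110 in all, had a median log2 ratio of -0.07 in males, -0.07 in the HTSeq libraries and 0.06 in females, with 3 higher and 9 lower at an unadjusted p under 0.05.

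**Figure D4:**
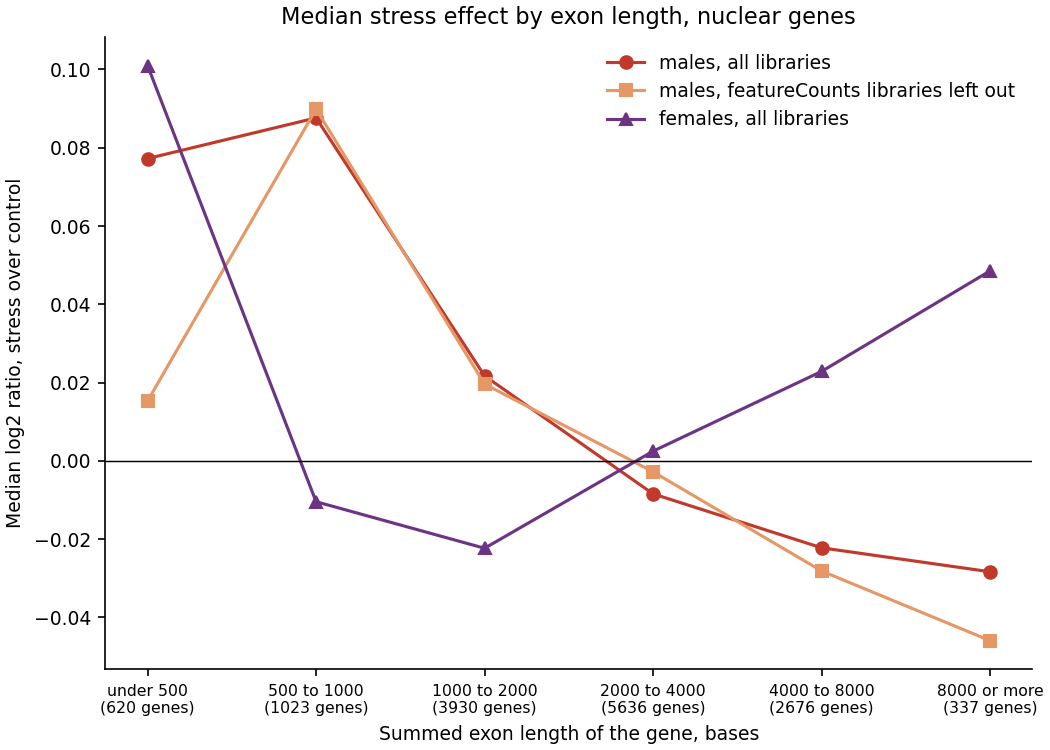
Median log2 ratio of stress over control against the class of summed exon length (bases) over nuclear genes, in males (circles), in males without the featureCounts libraries (squares) and in females (triangles). The male medians go from 0.08 in the shortest class to -0.03 in the longest, and the female medians are lowest between 1000 and 2000 bases.

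On chromosome X 513 genes were tested, and ENSRNOG00000046790 was the 1 called. At an unadjusted p under 0.05, 8 were higher and 50 lower in stressed males, and the median log2 ratio was -0.07. The median was nearer 0, at -0.04, in the HTSeq libraries and also without control 20 alone, and was -0.02 in females. By library the median distance was -0.04, -0.03, -0.04 and -0.00 in stressed 11, 12, 13 and 14, and 0.04, -0.03, 0.02 and 0.10 in controls 16, 17, 18 and 20. Control 20 was thus the highest, and control 17 lay among the stressed libraries.

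On chromosome 12, 24 of 463 genes were higher and 4 lower at an unadjusted p under 0.05, with a median of 0.06 in males, 0.04 in the HTSeq libraries and -0.01 in females. A set of 9 tested genes with 1 exon each lies on chromosome 17 between 43627930 and 44766981. Their median log2 ratio was 0.80 (0.50 in the HTSeq libraries, 0.57 without control 18 and 0.23 in females). Of the 9, 2 were higher at an unadjusted p under 0.05, 0 were called in males, and stressed 13 lay among the controls by median distance. Single genes differed from that median. A 1-exon gene in this stretch (43639749 to 43640387) was highest of the stressed males in stressed 13, at 7.79 CPM. That gene was called on average over the sexes (edgeR adjusted p = 0.00426) but not in males.

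The mitochondrial genome encodes subunits of the respiratory chain, its own ribosomal RNAs and transfer RNAs. Of its 37 genes in the files, 13 with 200 bases or more lie outside the ribosomal RNA region, and all 13 had a log2 ratio above 0, from 0.24 to 0.59 with a median of 0.44. Of them, 6 had an unadjusted p under 0.05 and 0 were called. Their median distance was 0.80, 0.13, -0.01 and -0.17 in stressed 11, 12, 13 and 14, and -0.20, -0.30, -0.28 and -0.11 in controls 16, 17, 18 and 20. Stressed 11 stood far above the rest, and stressed 14 lay below control 20. Without stressed 11 the median log2 ratio was 0.19, in the HTSeq libraries 0.24 and in females 0.07. The sign did not hold for all 13 without stressed 11. The gene at 7758 to 7961 was then at -0.41. The gene at 10160 to 11537, which has the 0.59, was then at -0.26. In the HTSeq libraries, which leave out control 20 as well as stressed 11, all 13 were above 0, from 0.12 to 0.37. The genes at 7758 to 7961 and 10160 to 11537 stood at 0.24 and 0.21 there.

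Among single mitochondrial genes, the one at 14136 to 15278 had a log2 ratio of 0.53 (SE 0.20, adjusted p = 0.511), and 0.31 without stressed 11. The one at 3904 to 4942 had 0.58 (SE 0.22, adjusted p = 0.481), and 0.37 without stressed 11. These were the smallest adjusted p among the 13. In the region where vertebrates have the ribosomal RNA genes, the genes at 68 to 1025 and 1094 to 2664 stood at 0.26 (SE 0.23) and 0.22 (SE 0.27), with adjusted p of 0.844 and 0.90. Some short or overlapping mitochondrial genes stood far higher in both featureCounts libraries. The gene at 3835 to 3903 stood at 36.4 CPM in stressed 11 and 19.2 CPM in control 20, against 0.691 to 1.71 CPM in the 6 HTSeq libraries, and the gene at 7758 to 7961 at 937 and 625 CPM, against 179.9 to 244 CPM.

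**Figure D5:**
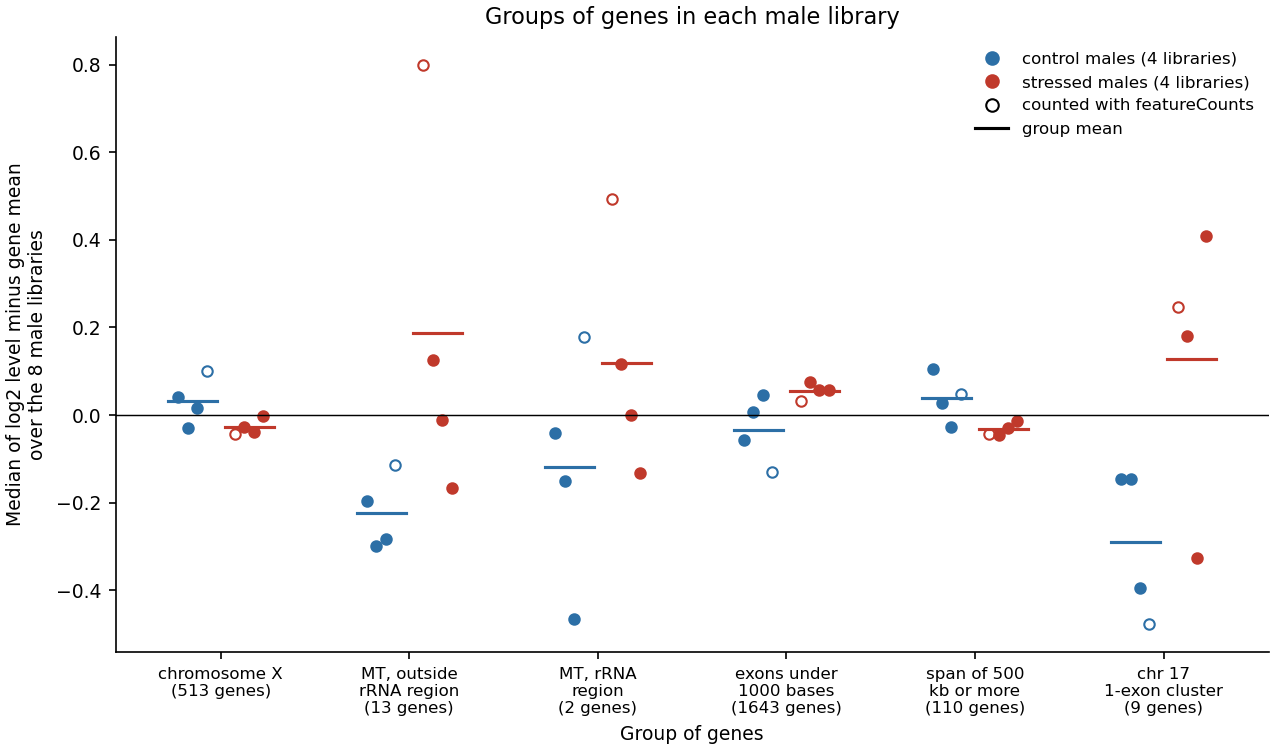
Median over a group of genes of the log2 level minus the gene's mean over the 8 male libraries, in each stressed (red) and control (blue) library, with group means as bars and featureCounts libraries as open circles. Stressed 11 stands apart at 0.80 in the mitochondrial genes outside the ribosomal RNA region, and control 20 is the highest on chromosome X at 0.10.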

How the data were processed

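Tissue RNA was sequenced as 75 bp paired ends from NuGen Ovation RNA-Seq System v2 libraries, per the labels' protocols. The submitters' processing notes name the build Rnor_6.0 and, as tools, HTSeq, STAR 2.5.2a, limma, DESeq and bedtools. The deposited values are raw counts of reads per Ensembl gene. HTSeq options, such as strand, are not given in the sources used here. Stressed 11, control 20 and 1 female control were counted, per the file headers, by featureCounts 1.6.1 on Ensembl release 92 without pair or strand options. The same headers' exon coordinates gave position and length for all 32883 genes. HTSeq lines that name no gene stayed out of library sizes and tests.

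The test was edgeR 4.0.16 in R 4.3.3: filterByExpr, TMM, robust quasi-likelihood fits of 4 group means to 16 libraries, and Benjamini-Hochberg adjustment over 14241 genes, called under 0.05. Alternatives were DESeq2 1.42.0, limma voom 3.58.1, other scalings, filters and sets of libraries, and featureCounts counts halved, which was added after the data were seen. Genes were named by rule: those called in males with or without the featureCounts libraries, the 10 with the smallest p called in females or on average only, and the 5 most like the genes that rose. Mitochondrial genes and genes grouped by position or length were chosen after their values were seen. The comparison, lists and tests were chosen with earlier results of these data known. The RefSeq table (GRCr8, 47357 genes) held 0 of the identifiers, so the pathway lists, cell type markers and promoter motifs could not be applied, and the tissue label was not checked against markers. The series text gives 6 replicates, and the samples used here number 4 per group.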

Additional observations from a re-analysis of the deposited data

Results flagged for a closer look

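In 44 groups of 4 libraries screened (the 17 called genes and library measures), 4 held a library far from the other 3, where chance gives about 1 in 20 groups. That rate is a rough guide only, since the 17 genes were picked for a small p in these libraries and the library measures are related. ENSRNOG00000046790 read 7.57 CPM in male control 20, while controls 16, 17 and 18 read 1.75 to 2.31 CPM. The gene ranked 14 (chromosome 19, 11324698 to 11326139) read 18.5 CPM in stressed 13, against 10.7 to 12.0 CPM in the other stressed males, and 8.55 CPM in control 17, against 6.73 to 6.81 CPM in the other controls. The total of male control 20, which featureCounts counted by mate, was 67.0 M counts, while the HTSeq controls 16, 17 and 18 had 30 to 34.9 M. Stressed 11, counted the same way as control 20, had 73.8 M, against 24.4 to 36.7 M in stressed 12, 13 and 14.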

How the results depend on the processing

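The 16 genes that rose became 4 without the 3 featureCounts libraries, 3 without the 2 male ones, 26 with the 8 males fitted alone, 9 with the 6 male HTSeq libraries alone, 26 with DESeq2, 51 with no low-count filter (all among the genes tested here) and 7 to 11 with 1 male library left out. The 1 gene that fell became 0 without the 2 male featureCounts libraries, 3 with the 6 male HTSeq libraries alone, 5 with DESeq2, 0 with limma voom, 37 with no filter and 0 to 2 with 1 male library left out. With the 8 males fitted alone 1 gene fell, but another one, since ENSRNOG00000046790 was not called there (adjusted p = 0.0758). The sex difference was called for 0 genes, for 1 with DESeq2, for 36 with no filter and for 0 with any 1 male library left out. The causes were not tested. Counts stayed within 1.5 times of 16 with the counting tool as covariate (17), limma voom (11), RLE size factors, mitochondrial genes left out (17), a 1 CPM filter (19) and featureCounts counts halved (16). All 17 called genes were also called by DESeq2, and 10 by limma voom. With the 8 males fitted alone 15 of the 17 were called, and with the 6 male HTSeq libraries alone 7. No log2 ratio of a called gene changed sign, though every fit shared libraries with the one that called it. The chromosome X median moved to -0.04 without control 20. The median of genes with under 1000 bases of exon, 0.08, was 0.06 without control 20 and 0.11 without control 18. That of genes spanning 500 kb or more was -0.10 without control 18 and -0.04 without control 16. No paired analysis was possible because the groups compared share no replicate numbers. Counts of 7 to 30 in the controls limit the gene ranked 3 in precision. Of the 16 genes that rose, 5 had a control library under 50 counts. Among these, the controls had 13 to 40 counts for the gene ranked 12 and 29 to 55 for the gene ranked 16.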
